A study of Mus musculus with 17 samples.

Results

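*Hmces* and *Fam72a* were followed in the 5′ single-cell transcriptomes of germinal centre (GC) B cells. They are 2 of the 21848 genes in the count tables, and they were picked by symbol with their values at 48 h after treatment already known. Comparisons with the treated 48 h mice are therefore given as description, without a test. The B cells were labelled as GC B cells of lymph nodes. Mice were on the C57BL/6J background and 5 to 12 weeks old. CD45.1/1 recipients had been primed with OVA in alum, received CD45.2 B1-8hi B cells, which bind the hapten NP, and were given NP-OVA in alum in the footpad. A minor fraction of the transferred B1-8hi cells expressed DEC-205 and the rest were Ly75-/-. In division tracking the donors also carried Col1a1 tetO-H2B-mCherry and Vav-tTA, which acts across blood cells, and recipients were given doxycycline. Anti-DEC-OVA, an antibody that carries antigen into DEC-205+ B cells, was given at day 7, and it draws strong T cell help to those cells.

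The time course held 2 experiments with 39 mice, each mouse marked by hashtag antibodies. Untreated mice were taken at 0 h (9 mice), 48 h (6 mice) and 72 h (8 mice), and mice given anti-DEC-OVA at 48 h (9 mice) and 72 h (7 mice). Within an experiment all groups shared 1 pool. The study describes the time course cells as DEC-205+ GC B cells, in treated mice and in untreated controls. A further pair of pools held cells of 7 mice taken 72 h after anti-DEC-OVA and sorted by image for a Rosa26 DHB-tdTomato reporter of CDK2 activity, as CDK2-hi and CDK2-low cells. The deposited sample index names the groups only by day (7, 9 and 10) and the sorted pools only C and N. From the account of the study, these days were taken as 0 h, 48 h and 72 h counted from the injection, C as cells with the reporter in the cytoplasm (CDK2-hi) and N as cells with it in the nucleus (CDK2-low). Each CDK2 population was 1 library, so population and library cannot be told apart. An earlier experiment had 3 mice per group at day 7, untreated day 10 and treated day 10. There the treated cells were sorted as DEC-205+ cells with low mCherry, a dilution marker of past divisions, and the untreated cells as B1-8hi cells, so treatment and gate cannot be told apart. A productive B1-8hi receptor pairing was read in 8.06% to 13.8% of the cells of its untreated day 10 mice. In its treated mice the share was 0.817% to 3.46%. In the time course the shares per mouse were 57.7% to 77.7% in the larger experiment and 32.2% to 58.0% in the smaller. At 48 h in the larger experiment they were 70.5% to 77.7% in treated and 62.3% to 67.4% in untreated mice. In the smaller they were 53.1% to 58.0% and 34.7% to 38.8%. Whether recovery of receptor sequences sets these shares was not tested. The study kept only cells with this pairing, and values below use all kept cells unless stated. Summed unique molecular identifiers (UMIs, 1 per captured transcript) ran from 1984426 to 13373185 per mouse in the time course, from 3988733 to 20394909 in the CDK2 pools and from 349784 to 4728689 in the earlier experiment.

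The GC B markers *Fas*, *Bcl6*, *Mef2b*, *S1pr2* and *Gcsam* and the B cell marker *Cd79a* were present in every mouse. Their summed level ranged from 2134 to 3819 counts per 1000000 UMIs (CPM) over the time course. Over the mice of all experiments *Cd79a* alone ran from 703 to 2770 CPM, and each of the others stayed between 111 and 510 CPM. The 4 T cell markers summed to between 0.205 and 17.9 CPM there, and the macrophage markers to between 0.523 and 19.3 CPM. Naive or memory B cell markers summed to between 91.6 and 188 CPM in treated mice at 48 h, where all other groups lay between 187 and 490 CPM. Over the mice of all experiments *Fcer2a* had the highest median of these markers (211 CPM), followed by *Klf2* (23.8 CPM). The plasma cell markers *Sdc1*, *Jchain*, *Prdm1* and *Irf4* summed to between 1063 and 1846 CPM in treated and between 680 and 1325 CPM in untreated mice at 48 h. *Jchain* made up most of these sums. Over the mice of all experiments it ran from 673 to 2364 CPM, and *Sdc1*, *Prdm1* and *Irf4* reached at most 9.04, 16.1 and 37.8 CPM. The part of these markers in the results was not tested.

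*Hmces* encodes a protein that crosslinks itself to abasic sites in single-stranded DNA and thereby shields them from cleavage and from error-prone synthesis. Abasic sites arise when the uracil glycosylase Ung removes uracil that deamination has left in DNA, the starting lesion of somatic hypermutation (SHM). *Fam72a* encodes a protein that binds Ung and lowers its level, which leaves more uracil to be read as a mismatch. Uracil and abasic sites are the lesions behind SHM and class switching in GC B cells.

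*Hmces* (ENSMUSG00000030060.16) lies on the plus strand of chr6:87890653-87913627 in GRCm39, and *Fam72a* (ENSMUSG00000055184.6) on the plus strand of chr1:131455602-131467610. The stretches before their start sites are shown because both genes had their highest level in cells called G2-M (*Fam72a* by the larger step), and CCAAT boxes are frequent in promoters of genes expressed in G2 and M. The sequences are from RefSeq (GRCm38.p6, plus strand, at chr6:87913726-87913975 for *Hmces* and chr1:131527653-131527902 for *Fam72a*), with CCAAT in capitals.
Fam72a: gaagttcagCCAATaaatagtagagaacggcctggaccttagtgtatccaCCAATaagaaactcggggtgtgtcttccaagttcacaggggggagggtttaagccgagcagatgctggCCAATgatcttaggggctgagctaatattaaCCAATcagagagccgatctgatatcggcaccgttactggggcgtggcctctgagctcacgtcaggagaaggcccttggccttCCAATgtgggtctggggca
Hmces: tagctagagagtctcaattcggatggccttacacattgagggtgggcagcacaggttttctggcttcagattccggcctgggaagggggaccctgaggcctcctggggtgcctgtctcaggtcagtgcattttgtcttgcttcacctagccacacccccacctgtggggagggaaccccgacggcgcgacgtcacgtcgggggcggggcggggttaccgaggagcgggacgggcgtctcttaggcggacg
The *Fam72a* stretch held 5 CCAAT motifs, all on the strand of the gene, at positions -241, -200, -132, -101 and -19 from the start. The *Hmces* stretch held 0 CCAAT motifs on either strand. Over all 32851 promoter stretches of the same 250 bases, 33.8% held at least 1 CCAAT on either strand, and 0.213% held 5 or more. The cell cycle homology region letters TTTGAA (5252 of the 32851 stretches, both strands searched) were in neither of the stretches, nor were the E2F letters TTTCCCGC, TTTCGCGC, TTTGCCGC or TTTGGCGC (1.86% of all stretches). Such matches describe letters in the reference and say nothing about binding in these cells.

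*Hmces* was a well-covered transcript with its lowest level in untreated mice at 72 h. At 0 h its level ran from 522 to 631 CPM with a median of 574 (570 ± 32.7, mean ± SD, n = 9). Untreated mice at 48 h ranged from 445 to 545 CPM with a median of 494 (494 ± 44.7, n = 6), and untreated mice at 72 h from 399 to 551 CPM with a median of 450 (470 ± 52.4, n = 8). Of the 8 untreated mice at 72 h, 6 lay below every mouse at 0 h. Treated mice at 48 h ranged from 617 to 738 CPM with a median of 666 (673 ± 36.5, n = 9), and all 9 lay above every untreated mouse of that time. That comparison called 47.4% of all genes, 55.4% of them higher and 38.0% when libraries were scaled by total UMIs. The light zone markers *Cd83* and *Cd86* summed to between 186 and 262 CPM in these treated mice and between 441 and 532 CPM in the untreated ones, and their part in the difference was not tested. Treated mice at 72 h ranged from 502 to 684 CPM with a median of 615 (607 ± 61.5, n = 7), and 6 of the 7 lay above every untreated mouse at 72 h.

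The fall of *Hmces* without treatment and its higher level with treatment at 72 h both passed the test, in comparisons that share the same 8 untreated mice at 72 h. Treated mice exceeded untreated mice at 72 h by 0.37 ± 0.058 on the log2 scale (1.29-fold, ± SE, edgeR quasi-likelihood test, Benjamini-Hochberg adjusted p = 3.1e-05). In this comparison 8.55% of the 10220 genes tested were called, 4.67% as higher. In the larger experiment, with 4 treated mice, the difference was 0.40 (adjusted p = 0.0015). The smaller experiment, with 3, gave 0.31 and did not pass (adjusted p = 0.10). Untreated mice at 72 h were lower than at 0 h by a log2 difference of -0.29 ± 0.055 (adjusted p = 7.9e-04), in a comparison where 4.41% of genes were called and 2.62% as lower, with 40.6% of the calls higher and 51.8% when libraries were scaled by total UMIs alone. This difference was -0.27 in the smaller experiment alone, with an adjusted p of 0.21. At 48 h the untreated difference from 0 h was -0.20 ± 0.059 (adjusted p = 0.19, 95% interval from -0.32 to -0.08), where 0.127% of genes were called. Treated mice at 72 h and mice at 0 h did not differ beyond their spread, with a log2 difference of 0.08 and an interval from -0.04 to 0.19, in a comparison that called 4.94% of genes, 48.3% of them higher and 60.3% with total UMIs as scaling. From the lowest group to the highest, the order was untreated 72 h, untreated 48 h, 0 h, treated 72 h and treated 48 h. No neighbours among the first 4 of these groups passed the test, with a log2 difference of -0.09 (interval from -0.21 to 0.04) between untreated 72 h and 48 h, where 0.157% of genes were called.

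*Fam72a* was a sparse transcript, with between 13 and 333 UMIs per mouse in the time course. Its level at 0 h ran from 6.55 to 21.5 CPM with a median of 14.1 (14.4 ± 4.54, n = 9). Untreated mice reached 15.0 ± 2.08 CPM at 48 h (n = 6, lowest 11.9, median 14.9, highest 18.3) and 15.96 ± 3.04 CPM at 72 h (n = 8, lowest 10.8, median 17.2, highest 18.9). Treated mice ran from 18.4 to 25.2 CPM at 48 h with a median of 23.0 (22.5 ± 2.43, n = 9), and all 9 lay above every untreated mouse of that time. At 72 h treated mice ran from 11.05 to 21.7 CPM with a median of 16.4 (16.6 ± 4.08, n = 7), and 2 of the 7 lay above every untreated mouse of that time.

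No tested comparison between groups of the time course called *Fam72a* over all cells. The treated and untreated mice at 72 h differed by 0.07 ± 0.149 on the log2 scale, with an interval from -0.23 to 0.37 (edgeR quasi-likelihood test, adjusted p = 0.87). The untreated mice differed from 0 h by -0.04 at 48 h (interval from -0.34 to 0.26) and by 0.06 at 72 h (interval from -0.22 to 0.34). By mean CPM the order from the lowest group was 0 h, untreated 48 h, untreated 72 h, treated 72 h and treated 48 h, and no neighbours among the first 4 differed beyond their spread.

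**Figure D1:**
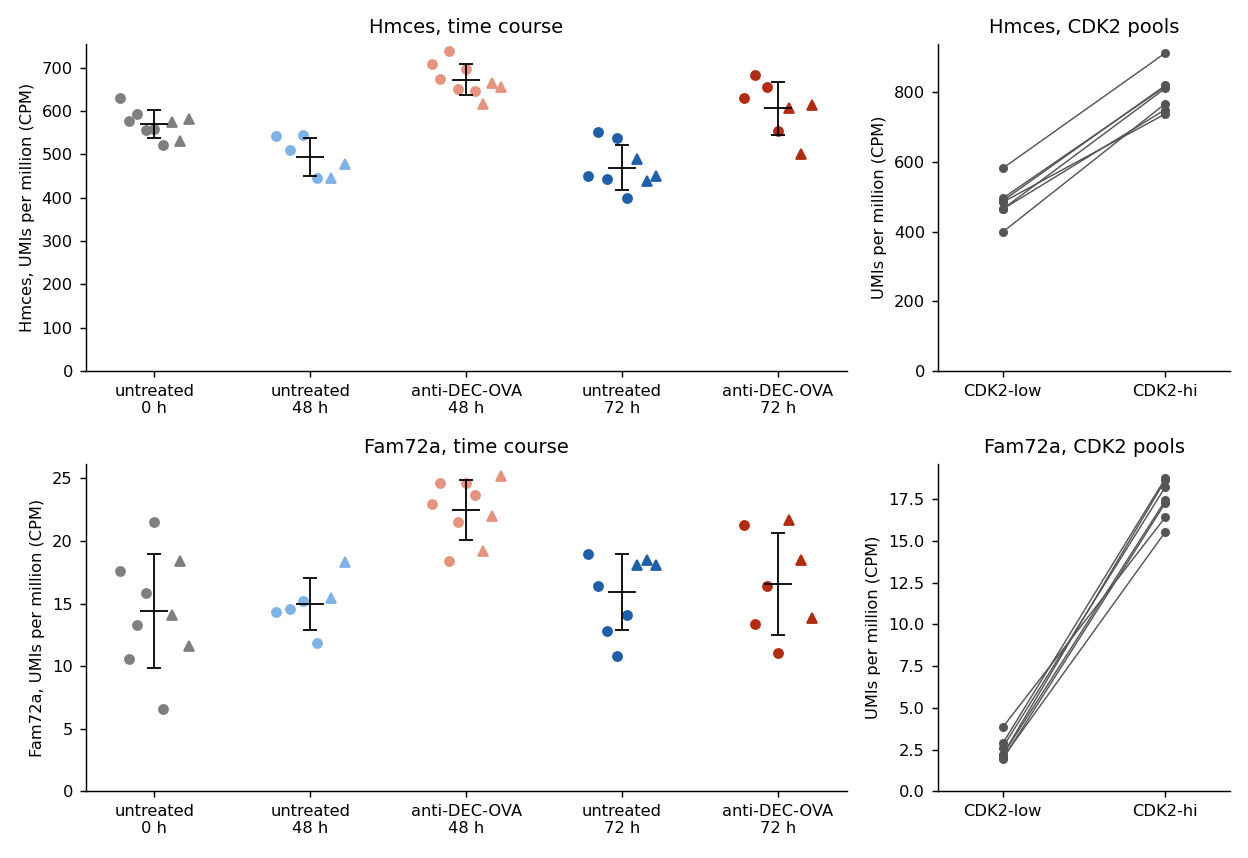
Level of Hmces (top) and Fam72a (bottom) in CPM for each mouse of the time course (left: circles, larger experiment; triangles, smaller experiment; bars, mean ± SD) and for the 7 mice with cells in both CDK2 pools (right: lines join cells of 1 mouse). All 9 treated mice at 48 h lie above the untreated mice of that time for both genes, whereas at 72 h 6 of 7 treated mice do so for Hmces and 2 of 7 for Fam72a.

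Both genes were higher in cells with a UMI of *Mki67* or *Top2a*, 2 genes expressed in dividing cells. Such a UMI was held by 67.3% to 94.6% of the cells of a mouse in the time course, and the part of free RNA in this share was not tested. In cells without such a UMI, *Fam72a* ranged from 0 to 8.47 CPM over the 39 mice with a median of 1.43, and in cells with one it ranged from 8.71 to 25.5 CPM with a median of 18.9. It was higher in cells with *Mki67* or *Top2a* UMIs in 39 of 39 mice, by 3.20 ± 0.177 on the log2 scale (9.19-fold, edgeR quasi-likelihood test, adjusted p = 3.3e-25). *Hmces* ranged from 188 to 478 CPM without and from 437 to 751 CPM with such a UMI. It was also higher in 39 of 39 mice, by 0.88 ± 0.044 (1.84-fold, adjusted p = 2.0e-27). The background is broad, since 75.9% of the 8212 genes tested were called here and 33.4% as higher.

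Seen by cell, 34 of 3975 cells without *Mki67* or *Top2a* UMIs held a *Fam72a* UMI, a share of 0.855% (95% exact binomial interval from 0.593 to 1.19), against 3075 of 19723 cells with such UMIs (15.6%, from 15.1 to 16.1). These intervals cover counting error only. The median depth was 4342 UMIs in the former cells and 8803 in the latter. For *Hmces* the shares were 56.6% and 85.4%. After each cell was thinned to 2871 UMIs, which left out 2367 of 23698 cells, *Fam72a* remained higher in cells with *Mki67* or *Top2a* UMIs in 38 of 39 mice by share of cells, and *Hmces* in 39 of 39. Thinning lowered the share of cells with a *Fam72a* UMI over all cells of treated mice from 22.2% to 4.43% at 48 h and that of untreated mice from 9.33% to 3.05%. The treated cells of that time held a median of 13704 UMIs over mice and the untreated cells 6667. Both groups of an experiment shared a pool and its library, and what sets this gap was not tested.

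The other experiments gave the same order of the classes. In the earlier experiment *Hmces* was higher by 0.63 ± 0.039 in cells with *Mki67* or *Top2a* UMIs (9 of 9 mice, adjusted p = 5.3e-23, 46.9% of genes called), and in the CDK2 pools by 0.55 ± 0.071 (11 of 11 pairs of classes within mouse and population, adjusted p = 2.6e-07, 31.0% of genes called). *Fam72a* was too sparse there for the low-count filter. It gave 8 UMIs in 4867 cells without and 132 in 5814 cells with *Mki67* or *Top2a* UMIs in the earlier experiment, and was higher in 9 of 9 mice.

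Phase calls from other transcripts placed *Fam72a* mainly in G2-M. Per mouse its level was 2.31 ± 1.41 CPM in cells called G0-G1, 9.41 ± 3.01 in S and 32.8 ± 4.36 in G2-M (n = 39). The lowest G2-M value, 24.5 CPM, lay above the highest S value, 15.4 CPM, while S, from 2.29 CPM upwards, overlapped with G0-G1, which reached 5.89 CPM. Against G0-G1 the difference was 2.12 ± 0.125 in S and 3.94 ± 0.096 in G2-M on the log2 scale, each higher in 39 of 39 mice (edgeR quasi-likelihood test, adjusted p = 7.5e-30 and 1.7e-61). The G2-M value was 4.29 in the larger and 3.33 in the smaller experiment, and the S value 2.51 and 1.43.

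*Hmces* followed the same order with smaller steps. Its level was 389 ± 71.6 CPM in G0-G1, 444 ± 84.6 in S and 790 ± 111 in G2-M (n = 39). The G0-G1 and S ranges overlapped widely, from 268 to 526 and from 299 to 633 CPM. The log2 difference from G0-G1 was 0.28 ± 0.031 in S (adjusted p = 3.7e-14, higher in 32 of 39 mice) and 1.12 ± 0.030 in G2-M (adjusted p = 1.2e-57, 39 of 39 mice). Of all genes tested, 84.7% were called in S and 80.7% in G2-M, 37.7% as higher and 43.0% as lower in G2-M, and 39.6% as higher and 45.1% as lower in S.

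**Figure D2:**
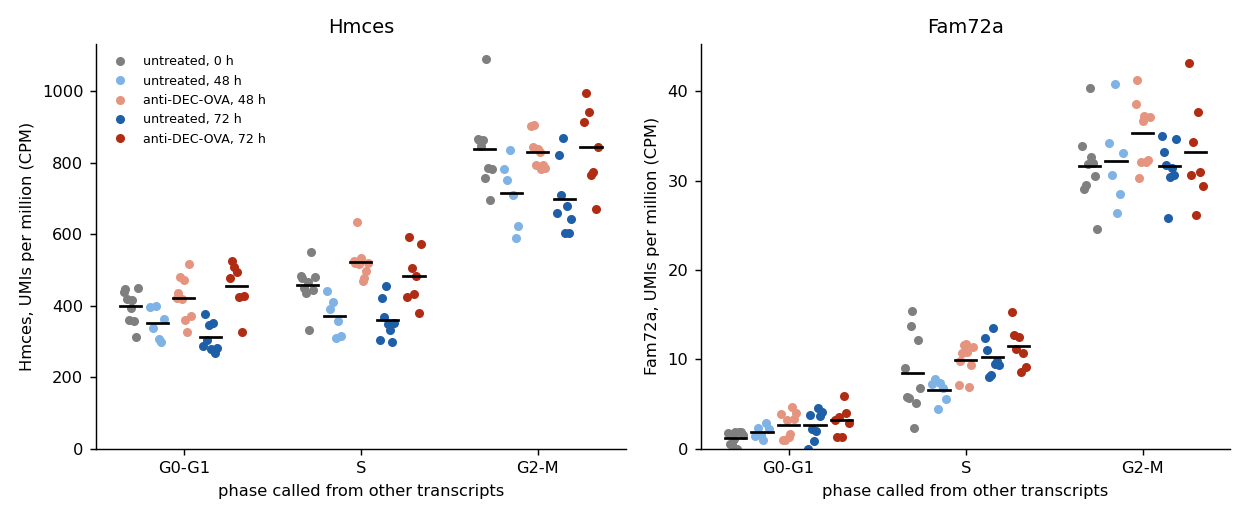
Level of Hmces (left) and Fam72a (right) in CPM by called cell cycle phase, 1 point per mouse of the time course, coloured by group, with black lines at group means. In Fam72a the G2-M points lie above all others, G0-G1 and S overlap in both genes, and for Hmces the means of untreated mice at 48 h and 72 h are the lowest in each phase.

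The groups differed in how many cells they held per phase, which moves with the levels above. Cells called G2-M made up 43.3% ± 3.59 (SD) of the cells of treated mice at 48 h, and between 26.4% and 28.3% on average in the other groups. Cells called G0-G1 made up 21.4% ± 3.20 of the former, and between 48.1% and 52.0% on average in the latter. Over all cells of a mouse, a larger share of G2-M cells and more transcript per cell cannot be told apart. The comparison was therefore repeated within each phase, a step added after the values over all cells were seen.

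Within phases, the 72 h difference of *Hmces* passed the test in each of the 3. Over all cells this comparison called 8.55% of all genes, and the shares of all genes called within the phases are not given here. In G0-G1 cells treated mice had 455 ± 68.0 CPM (n = 7) and untreated mice 312 ± 41.0 (n = 8), a log2 difference of 0.54 ± 0.084 (edgeR quasi-likelihood test, adjusted p = 1.5e-05), with 6 of 7 treated mice above every untreated mouse. In S the levels were 484 ± 78.5 and 360 ± 54.7 CPM (log2 difference 0.42 ± 0.085, adjusted p = 9.0e-04). In G2-M they were 843 ± 114 and 698 ± 98.5 CPM (log2 difference 0.27 ± 0.062, adjusted p = 0.0058). In cells without *Mki67* or *Top2a* UMIs the difference was 0.42 ± 0.133 and did not pass (adjusted p = 0.083). Whether the differences of the classes were unequal was not tested. *Fam72a* was not called at 72 h in S (0.16 ± 0.214) or in G2-M (0.09 ± 0.108), and its G2-M levels were 33.2 ± 5.71 and 31.6 ± 2.92 CPM.

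At 48 h, as description only, the treated minus untreated difference of *Fam72a* was 0.67 over all cells, 0.60 ± 0.209 within S and 0.19 ± 0.093 within G2-M. Its G2-M level was 35.3 ± 3.72 CPM in treated and 32.2 ± 5.07 CPM in untreated mice, and the ranges overlapped (30.3 to 41.3 and 26.4 to 40.8 CPM). For *Hmces* the difference was 0.53 ± 0.081 within S, 0.27 ± 0.062 within G2-M, 0.26 ± 0.086 within G0-G1, and -0.0031 ± 0.139 in cells without *Mki67* or *Top2a* UMIs. Treated mice at 48 h had 301 ± 80.1 CPM of *Hmces* in these last cells, and untreated mice 303 ± 63.8 CPM.

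**Figure D3:**
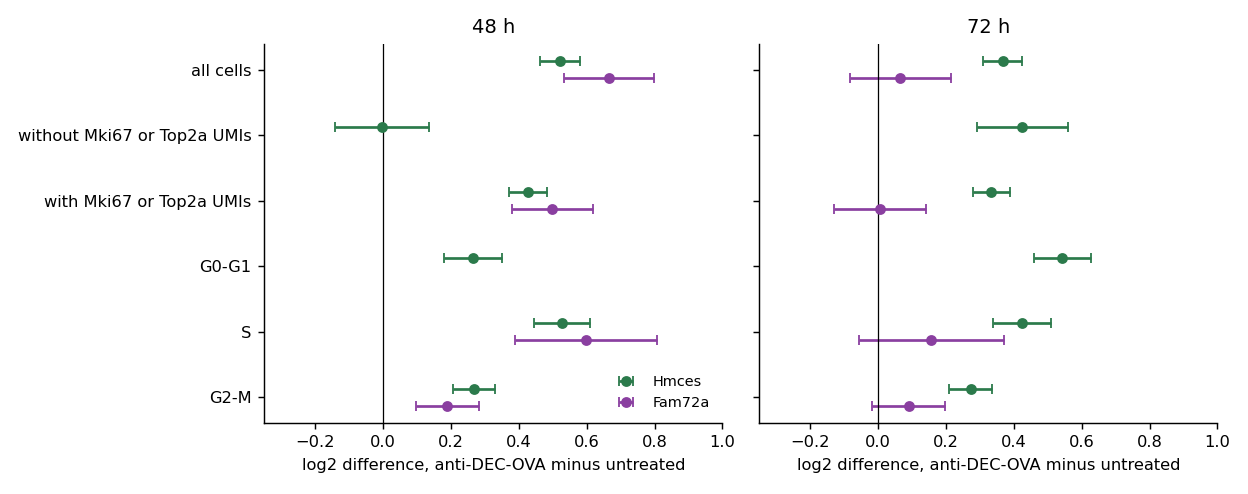
Log2 difference, anti-DEC-OVA minus untreated, of Hmces (green) and Fam72a (purple) at 48 h (left, description only) and 72 h (right), over all cells and within classes of cells, with bars of 1 standard error; Fam72a did not pass the low-count filter in G0-G1 or in cells without Mki67 or Top2a UMIs. The Hmces points at 72 h lie between 0.27 and 0.54, of which that in cells without Mki67 or Top2a UMIs did not pass the test, and the Fam72a point at 48 h moves from 0.67 over all cells to 0.19 within G2-M.

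The difference between cells with and without *Mki67* or *Top2a* UMIs is given by group as description only. For *Hmces* the log2 difference was 0.78 at 0 h, 0.81 and 0.83 in untreated mice at 48 h and 72 h, 0.75 in treated mice at 72 h and 1.25 ± 0.085 in treated mice at 48 h. For *Fam72a* it ran from 2.48 to 3.91 with standard errors between 0.353 and 0.435.

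Cells sorted by the activity of CDK2, the kinase that drives entry into S phase, differed in both genes. In CDK2-hi cells *Fam72a* ran from 15.5 to 18.8 CPM over 7 mice with a median of 17.4, and in CDK2-low cells from 1.92 to 3.84 CPM with a median of 2.18. The populations did not overlap. The ratio within a mouse lay between 4.28 and 8.99, and the log2 difference was 2.89 ± 0.111 (edgeR quasi-likelihood test, adjusted p = 6.5e-18, higher in 7 of 7 mice). *Hmces* ran from 738 to 913 CPM in CDK2-hi cells with a median of 812, and from 399 to 582 CPM in CDK2-low cells with a median of 485. Its log2 difference was 0.93 ± 0.028 (adjusted p = 4.3e-20, 7 of 7 mice), and the ratio of the plain CPM within a mouse lay between 1.52 and 1.92. CDK2-hi cells summed to between 3326 and 3732 CPM of *Mki67* and *Top2a*, and CDK2-low cells to between 581 and 807 CPM. Naive or memory B cell markers summed to between 94.0 and 173 CPM in CDK2-hi and between 320 and 491 CPM in CDK2-low cells, and the light zone markers to between 221 and 313 CPM and between 585 and 795 CPM. Their part in the results was not tested.

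In this comparison 75.1% of the 10120 genes tested were called, 36.5% as higher and 38.6% as lower. The fit scales libraries by trimmed mean of M values (TMM), and scaling by total UMIs alone lowered the median of all genes by 0.20 on the log2 scale, with the share of higher genes among the calls falling from 48.6% to 29.3%. Under that scaling the differences were 0.73 for *Hmces* and 2.69 for *Fam72a*, both still called. Restricted to cells with *Mki67* or *Top2a* UMIs, they were 0.89 ± 0.029 and 2.77 ± 0.110. Such a UMI was held by 97.2% to 98.5% of CDK2-hi and 73.5% to 86.4% of CDK2-low cells per mouse. This restriction thus kept most cells and did not match the populations for their level of *Mki67* and *Top2a*. Restricted to cells that held *Cxcr4* UMIs and none of *Cd83* or *Cd86*, the difference of *Hmces* was 0.59 ± 0.110, over the 2 mice with at least 20 such cells in both populations. These CDK2-low cells held 0 and 2 *Fam72a* UMIs, so no difference is given for it. Cells with *Mki67* or *Top2a* UMIs had a median of 10652 UMIs in the CDK2-hi and 13795 in the CDK2-low pool. In these cells 15.9% (95% exact binomial interval from 15.0 to 16.7) of CDK2-hi and 3.92% (from 3.31 to 4.60) of CDK2-low cells held a *Fam72a* UMI. The part of depth in these shares was not tested.

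Dark zone and light zone cells of the GC were approximated by *Cxcr4*, the dark zone chemokine receptor, and by *Cd83* and *Cd86*, activation markers of the light zone. Cells with *Cxcr4* UMIs only were compared with cells with *Cd83* or *Cd86* UMIs only, among cells with *Mki67* or *Top2a* UMIs. The *Cd83* or *Cd86*-only class held most of the cells of these classes in every group. Its mean share was 74.1% in treated mice at 48 h and between 80.9% and 85.2% in the other groups. Whether cells without a *Cxcr4* UMI lay outside the dark zone was not tested, so the classes are not a measure of zone size. *Hmces* was higher in the *Cxcr4*-only cells in 36 of 36 mice, at 723 ± 126 CPM against 461 ± 90.2 in the *Cd83* or *Cd86*-only cells (the latter over 39 mice). The log2 difference was 0.67 ± 0.039 (edgeR quasi-likelihood test, adjusted p = 3.0e-22), where 50.9% of 7992 genes were called and 25.8% as higher and 25.0% as lower. Over all cells it was 0.74 in the time course (55.2% of genes called), 0.74 in the CDK2 pools (44.2%) and 0.65 in the earlier experiment (11.5%). In the CDK2 pools 50.2% of the calls were higher, and 38.2% with total UMIs as scaling. *Fam72a* differed by 0.20 ± 0.120 among cells with *Mki67* or *Top2a* UMIs, with an interval from -0.04 to 0.44, and was higher in 17 of 36 mice (adjusted p = 0.16). Over all cells its difference was 0.30 ± 0.125 (adjusted p = 0.034), which fell to 0.28 with an adjusted p of 0.058 when libraries were scaled by total UMIs, and to 0.07 in the smaller experiment alone. In the CDK2 pools it was 0.03, with an interval from -0.24 to 0.29. In the time course the *Fam72a* counts by zone were low. Over all cells, the *Cxcr4*-only cells of untreated mice at 72 h held between 2 and 9 *Fam72a* UMIs per mouse.

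The number of *Fam72a* UMIs per 100 *Hmces* UMIs of the same cells needs no scaling. It follows from the levels above and is given as description, without a test. The ratio was 0.651 ± 0.787 in cells without and 3.16 ± 0.727 in cells with *Mki67* or *Top2a* UMIs, higher in 39 of 39 mice. It was 0.623 ± 0.414 in G0-G1, 2.18 ± 0.802 in S and 4.22 ± 0.707 in G2-M, higher at each step in 39 of 39 mice. CDK2-hi cells had 2.18 ± 0.170 and CDK2-low cells 0.522 ± 0.131, higher in 7 of 7 mice. In *Cxcr4*-only cells the ratio was 2.34 ± 1.21 against 3.36 ± 1.09 in *Cd83* or *Cd86*-only cells of the same mice, higher in 10 of 36. The ratios of the *Cxcr4*-only cells rest on the low *Fam72a* counts given above. Treated and untreated mice at 72 h had 2.76 ± 0.757 (n = 7) and 3.44 ± 0.773 (n = 8), and their ranges overlapped. The means were 2.46 ± 0.660 and 3.12 ± 0.814 in the larger experiment (n = 4 and 5), and 3.17 ± 0.795 and 3.98 ± 0.265 in the smaller (n = 3 each).

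**Figure D4:**
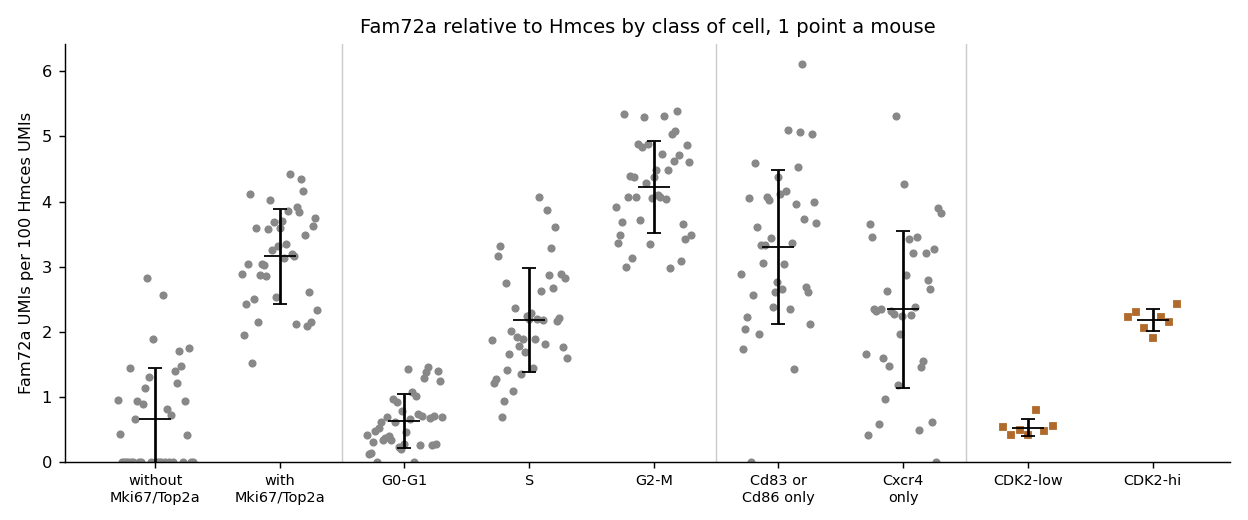
Fam72a UMIs per 100 Hmces UMIs by class of cell, 1 grey circle per mouse of the time course and 1 brown square per mouse of the CDK2 pools, with mean ± SD; the Cxcr4 and Cd83 or Cd86 classes hold cells with Mki67 or Top2a UMIs. The mean climbs from 0.623 in G0-G1 to 4.22 in G2-M, and is 2.18 in CDK2-hi against 0.522 in CDK2-low cells.

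*Ung*, whose product *Fam72a* counters, differed most from G0-G1 in another phase. *Ung* was higher than in G0-G1 by 3.31 ± 0.094 in S (edgeR quasi-likelihood test, adjusted p = 1.8e-55) and differed by -0.12 ± 0.143 in G2-M (adjusted p = 0.43), where *Fam72a* was highest. In CDK2-hi cells *Ung* was higher by 0.45 ± 0.064 (adjusted p = 7.4e-07). At 72 h the treated minus untreated difference of *Ung* was -0.27 ± 0.139 (adjusted p = 0.26).

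The wider list holds 28 base excision, mismatch repair and translesion genes that act on uracil and abasic sites. In S, 19 of 27 tested members were called higher and 6 lower than in G0-G1, where 39.6% of all genes were called higher and 45.1% lower, with a median log2 difference of 0.39 beside -0.04 over all genes. *Exo1*, an exonuclease of mismatch repair, was higher by 5.19 ± 0.083, *Pcna*, the replication clamp, by 2.74 ± 0.041, and *Apex1*, the main abasic site nuclease, by 1.13 ± 0.054. In G2-M, 17 were called higher and 3 lower, or 16 and 8 with total UMIs as scaling, beside 37.7% of all genes called higher and 43.0% lower. *Neil3*, a glycosylase that acts on single-stranded DNA, was higher by 5.57 ± 0.082 there and *Polh*, the translesion polymerase of A:T mutation, by 2.51 ± 0.048. The difference of *Polh* was 1.19 ± 0.054 in S and thus smaller than in G2-M, as for *Hmces* and *Fam72a*, while that of *Apex1* was 0.23 ± 0.057 in G2-M.

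In CDK2-hi cells 20 of 27 members were called higher and 4 lower, beside 36.5% and 38.6% of all genes. The split became 13 and 11 when libraries were scaled by total UMIs. *Neil3* (3.40 ± 0.054), *Polh* (1.61 ± 0.040) and *Rad18*, which ubiquitinates the clamp (1.49 ± 0.049), were among the largest differences. *Smug1*, another uracil glycosylase, was lower with a log2 difference of -0.45 ± 0.127 (edgeR quasi-likelihood test, adjusted p = 0.0028). Between *Cxcr4*-only and *Cd83* or *Cd86*-only cells with *Mki67* or *Top2a* UMIs, 6 of 26 members were called higher and 5 lower, near the 25.8% and 25.0% of all genes. *Polh* was higher by 0.78 ± 0.065 and *Neil1* by 0.62 ± 0.037, beside 0.67 for *Hmces*, while *Rev1* differed by -0.43 ± 0.040 (adjusted p = 4.6e-14).

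With treatment at 72 h, 1 of 27 members was called higher and 0 lower, beside 8.55% of all genes called and 4.67% as higher. Under the other settings between 0 and 3 were called. The member was *Mbd4*, a thymine and uracil glycosylase (log2 difference 0.27 ± 0.052, edgeR quasi-likelihood test, adjusted p = 4.4e-04). *Parp1*, which senses strand breaks, had a difference of 0.12 ± 0.040 (adjusted p = 0.055), and passed under several of the alternative settings. Untreated mice at 72 h had less *Mbd4* (-0.20 ± 0.049) and *Poli* (-0.24 ± 0.068) than at 0 h, the 2 members called there (adjusted p = 0.0087 and 0.031), of which 1 was called when libraries were scaled by total UMIs. That comparison called 4.41% of all genes, 2.62% as lower. *Mbd4* and *Hmces* were thus both lower in untreated 72 h mice and higher with treatment, in comparisons that share the untreated 72 h mice.

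By phase and by CDK2 population, the tested genes next to each member had smaller differences than the member. *Srgap2* (chr1:131212989-131455275), a regulator of cell shape, lies next to *Fam72a* on the opposite strand, and the gene bodies do not overlap. Their starts lie 327 bases apart, and the 250 bases before the *Srgap2* start held 2 CCAAT motifs. *Srgap2* was higher by 0.66 ± 0.045 in G2-M and by 0.31 ± 0.040 in CDK2-hi cells, and differed by 0.05 ± 0.049 in S (edgeR quasi-likelihood test, adjusted p = 1.6e-25, 1.4e-07 and 0.34). By zone class *Srgap2* had the larger difference, lower in *Cxcr4*-only cells. It was -0.35 ± 0.064 among cells with *Mki67* or *Top2a* UMIs (same test, adjusted p = 4.1e-06), beside 0.20 for *Fam72a*. Over all cells of the CDK2 pools it was -0.68 ± 0.068, beside 0.03. *Copg1* (chr6:87864787-87890582, plus strand), a coat protein gene before *Hmces*, was higher by 0.25 ± 0.040 in G2-M and by 0.14 ± 0.042 in CDK2-hi cells, and differed by 0.09 ± 0.053 with treatment at 72 h (adjusted p = 0.36). An antisense long noncoding gene, *Gm26636*, overlaps the start of *Hmces* in the annotation and was not analysed here. Whether its reads could be counted with *Hmces* was not tested.

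The genes whose level over the 39 mice was most like *Fam72a* were genes of mitosis. They were *Cdk1*, the mitotic kinase (Pearson's r = 0.938), *Smc4*, a condensin subunit (0.919), *Ckap2l* and *Nusap1*, of the spindle (0.918 and 0.913), and *Kif22*, a chromosome-binding kinesin (0.913), among 10220 genes. *Cdk1*, *Smc4*, *Ckap2l* and *Nusap1* belong to the list from which G2-M was called. In CDK2-hi cells *Cdk1* was higher by 3.64 on the log2 scale and *Smc4* by 1.88. Their treated minus untreated differences at 72 h lay between -0.08 and 0.02.

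The genes most like *Hmces* were *Mbd2*, a reader of methylated DNA (r = 0.926), *Myl4*, a myosin light chain (0.913), *Smdt1*, of the mitochondrial calcium uniporter (0.882), *Bloc1s2* (0.880) and *Gnas*, a G protein subunit (0.873). Their differences with treatment at 72 h, which the choice over the same mice partly fixes, ran from 0.15 ± 0.040 for *Mbd2* to 0.42 ± 0.077 for *Myl4* and are given without a test. Their G2-M differences ran from 0.01 for *Gnas* to 0.63 for *Mbd2*. *Fam72a* stood at rank 1377 in the list of *Hmces* (r = 0.521). These correlations share libraries and depth, rest on the same 39 mice as the comparisons above, and are given without a test.

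The earlier experiment, sequenced to a median of 1414 to 1992 UMIs per cell, gave no call for either gene between its groups. *Hmces* was at 551, 567 and 571 CPM at day 7, at 565, 589 and 592 CPM in untreated mice at day 10, and at 623, 650 and 689 CPM in treated mice. Plasma cell markers, mostly *Jchain*, summed to between 1046 and 1504 CPM in these treated and between 821 and 903 CPM in the untreated day 10 mice. The treated mice all lay above the untreated ones in *Hmces*, with a log2 difference of 0.18 ± 0.062 (edgeR quasi-likelihood test, adjusted p = 0.19, interval from 0.05 to 0.30), in a comparison where 1.95% of genes were called. The fall of *Hmces* from day 7 to untreated day 10 was not seen here, with a difference of 0.02 and an interval from -0.11 to 0.15, where 0.65% of genes were called. *Fam72a* rested on 1 to 34 UMIs per mouse, at 2.13, 4.69 and 6.19 CPM at day 7, at 2.86, 6.56 and 6.71 CPM in untreated and at 6.43, 6.77 and 7.19 CPM in treated mice. Its treated minus untreated difference of 0.13 ± 0.351 had an interval from -0.59 to 0.85, which includes the 0.67 described at 48 h in the time course.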

How the data were processed

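GC B cells were profiled as 5′ single-cell libraries with hashtag antibodies. The deposited matrices, which the authors made with CellRanger, hold raw UMI counts of genes and hashtags in each cell. Headers name CellRanger 7.1.0 for the earlier experiment and 8.0.1 for the others, and the submitters' processing notes list Cell Ranger 6.0.1, Seurat 5.1.0 and mm39.

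Cells were assigned to mice with HTODemux (Seurat 5.3.0, quantile 0.99), and cells with hashtags of several mice were left out. Doublets within a mouse were not searched for. The filter asked for 200 or more genes and a mitochondrial share below 10%, and left 23698 cells in the time course. Of the mice listed for the CDK2 pools, 7 of 9 had assigned cells. Between 0 and 94 barcodes were shared by any 2 pools. Phases came from CellCycleScoring after *Pcna*, *Ung* and *Exo1* were removed from its lists.

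UMI counts were summed per mouse, or per mouse and class with at least 20 cells, and the sums went into the quasi-likelihood test of edgeR 4.0.16 under R 4.3.3, after filterByExpr and TMM scaling. Benjamini-Hochberg adjustment ran over all genes tested with a threshold of 0.05, and the fit was checked on simulated counts. The time course had a term for the experiment. Classes and CDK2 populations were paired by mouse. DESeq2 1.42.0 was an alternative. Python 3.11.15 with scipy 1.17.1 did the rest. The members, the gene lists and the comparisons were chosen with earlier results of these data known. Named were the 2 members, the 28 listed genes, genes starting within 50 kb and the 5 most correlated genes per member. The planned test of zones in cells without *Mki67* or *Top2a* UMIs was replaced, since no mouse held 20 such cells in both classes. Igh transcripts are left out.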

Additional observations from a re-analysis of the deposited data

Results flagged for a closer look

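Of 28 sets of values per group examined for a mouse far from the others, 0 held one.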

How the results depend on the processing

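Of 402 member values under alternative settings, 376 kept direction and call, as did all 50 with 1 mouse left out. Those 50 cover the CDK2 pools and the earlier experiment only, and the time course was not refitted in this way. The *Hmces* difference with treatment at 72 h was 0.31 (adjusted p = 0.10) in the smaller experiment and 0.42 (0.083) in cells without *Mki67* or *Top2a* UMIs. The *Hmces* fall from 0 h to untreated 72 h was -0.27 (0.21) and -0.31 (0.36) under the same settings, each with fewer mice or cells. The *Fam72a* zone difference over all cells was 0.070 in the smaller experiment and 0.28 with total UMIs as scaling, and in the CDK2 pools it turned to -0.036 with that scaling.

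As description, the 48 h treated minus untreated difference of *Hmces* was -0.0031 in cells without *Mki67* or *Top2a* UMIs, 0.26 in G0-G1 and 0.27 in G2-M. Treated 48 h minus 0 h was -0.21, 0.10 and 0.061 in these classes, and minus treated 72 h -0.32, -0.10 and 0.031. For *Fam72a* treated 48 h minus untreated was 0.19 in G2-M, minus 0 h 0.13 in S and 0.19 in G2-M, and minus treated 72 h -0.16 in S and 0.10 in G2-M. Uncalled *Fam72a* values changed sign. Untreated 48 h minus 0 h was 0.0011 with DESeq2 and 0.14 in the smaller experiment, untreated 72 h minus 0 h -0.10 with thinned cells and -0.048 in the larger experiment, and untreated 72 h minus 48 h -0.030 with thinned cells. The cause was not tested.

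Of the listed repair genes, 2 instead of 1 were called at 72 h with DESeq2, its size factors, total UMIs, thinned cells, the highest hashtag, the B1-8hi pairing, the 2 groups alone, G0-G1 or S cells, and 3 in cells with *Mki67* or *Top2a* UMIs, where *Neil3* (-0.26) and *Rad18* (-0.19) were lower. In *Cxcr4*-only cells, over 2 mice, 9 instead of 24 were called between CDK2 populations. All genes called at 72 h were 874, and 914 with total UMIs as scaling, 480 with thinned cells, 217 with no term for the experiment, 22 in the smaller experiment, 141 in cells without *Mki67* or *Top2a* UMIs, 413 in S and 323 in G2-M. Counts of all genes under the remaining settings are not given here, so the listed genes called there lack that background. Between CDK2 populations 7596 became 1305 in *Cxcr4*-only cells, and between S and G0-G1 7586 became 5050 with thinned cells. Neither call of a member between CDK2 populations changed without the pairing by mouse (no replicate block), where the CDK2 difference was 0.93 for *Hmces* and 2.89 for *Fam72a*.

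Thinning the time course to 2871 UMIs per cell lowered the share of cells with a *Hmces* UMI to 66.3% at 0 h, 60.9% and 60.8% in untreated mice at 48 h and 72 h, and 74.0% and 71.3% in treated mice. For *Fam72a* the shares became 3.03%, 3.05%, 3.01%, 4.43% and 3.56% in the same order. The CDK2 pools were thinned to 5260 UMIs per cell, so their shares are not comparable with these. They became 91.9% in CDK2-hi and 80.4% in CDK2-low cells for *Hmces*, and 7.91% and 0.977% for *Fam72a*. *Fam72a* gave no value where it failed the low-count filter.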
